A study of Bos taurus with 48 samples.

Results

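MiR-103 and miR-107 were described across the liver and mammary gland of cows. They were all entries of the miRNA table named bta-miR-103, with any copy number, or bta-miR-107: bta-miR-103-1, bta-miR-103-2 and bta-miR-107, 3 of 524 entries. These are 2 distinct mature miRNAs, because the copies of miR-103 give the same mature miRNA and share reads. The 48 miRNA-seq libraries of Bos taurus came from liver, mammary parenchyma (the part of the gland that holds the ducts) and mammary fat pad. The liver was covered by 6 libraries of the ad libitum group, which received milk replacer without limit, 6 of the restricted group, which received a limited amount of it, and 5 of the control group. Parenchyma had 6 ad libitum, 6 restricted and 3 control libraries, and the fat pad had 6, 6 and 4 libraries in the same order. The labels give neither the age nor the strain of the animals, nor what the control animals ate. All tissue was taken right after slaughter into RNAlater, so each library is a whole tissue piece with all of its cell types. In such bulk samples, fewer cells of a type and less of a miRNA per cell cannot be told apart.

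MicroRNAs are short RNAs that lower the output of the mRNAs they pair with, mainly through the bases near their 5′ end called the seed. MiR-103 and miR-107 are nearly identical, carry the same seed, and are therefore counted as a family. Their genes lie in introns of the pantothenate kinase genes, whose enzymes start the making of coenzyme A: in the RefSeq annotation of the ARS-UCD2.0 assembly, MIR103-1 lies within PANK3, MIR103-2 within PANK2 and MIR107 within PANK1. In obese mice, silencing of this family in liver and fat improved insulin sensitivity, and caveolin-1, a protein of the cell membrane that helps to hold the insulin receptor in place, is a known target there. Both miRNAs are found in most mammalian tissues.

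Values are normalized read counts, that is, reads per mature miRNA divided by 1 size factor per library. The estimated reads per library ranged from 826776 to 11291532, with a median of 2651081 in liver, 8007299 in parenchyma and 5261943 in the fat pad. All members were well covered at this depth. MiR-107 had between 620 and 8900 reads per library and miR-103-2 between 2454 and 22131. The lowest of these, miR-107 in liver ad libitum replicate 6 with 620 reads, gave 3842 normalized read counts, with a 95% exact Poisson interval of 3546 to 4157. Such intervals cover counting error only. The tissue labels were checked with marker miRNAs. Hepatocyte markers summed to between 884709 and 1630810 normalized read counts in the 17 liver libraries and to at most 11903 in mammary libraries. Epithelial markers summed to between 61371 and 110903 in parenchyma of animals fed milk replacer, but only to 421, 92.5 and 291 in the 3 control parenchyma libraries. These sums lie in the range of the fat pad, where they summed to between 17.4 and 436. The mean of log2(value + 1) over the 10 markers was 3.76, 2.46 and 3.66 in control parenchyma replicates 1, 2 and 18. It was 0.42 to 3.03 in the fat pad and 10.8 to 11.8 in parenchyma of animals fed milk replacer. By this measure replicates 1 and 18 were above every fat pad library. Control parenchyma replicate 18 also held 96491 normalized read counts of immune cell markers, against 4516 and 4689 in control replicates 1 and 2. The control parenchyma libraries therefore go against their tissue label, and every tissue comparison below uses the 36 libraries of animals fed milk replacer unless control libraries are named.

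MiR-103 was more abundant than miR-107 in all 48 libraries. Over these libraries miR-103-2 averaged 9872 ± 3236, miR-103-1 averaged 9052 ± 2878 and miR-107 averaged 3180 ± 638 normalized read counts (SD, n = 48). By mean level they ranked 60, 63 and 90 among all 524 entries. MiR-103-2 made up 0.215% ± 0.0489 of the normalized read counts of a library and miR-107 made up 0.0712% ± 0.0143 (SD, n = 48). The entry of miR-103-1 was always slightly below that of miR-103-2, at between 89.5% and 94.8% of it. Since both entries draw on the same reads, miR-103-2 stands for miR-103 below, and miR-103-1 is named where it differs.

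In liver of animals fed milk replacer miR-103 was highest. MiR-103-2 in liver had a lowest value of 9780, a median of 14690.4 and a highest value of 19408 in the ad libitum group, and 11558, 14272 and 16830.1 in the restricted group. In liver of the control group it had 5976, 9266, 8980, 12539 and 9897. Parenchyma followed the opposite pattern. There miR-103-2 had 5677, 6415 and 9524 as the lowest, median and highest values of the ad libitum group, and 5035, 6309 and 7148 in the restricted group. The 3 control parenchyma libraries were higher, at 9155, 8448 and 10843. In the fat pad the values lay close together. They ran from 8573 over a median of 8702 to 8994 in the ad libitum group and from 9216 over 9611 to 10426 in the restricted group, and were 8973, 9662, 9523 and 10066 in the control group. The liver thus spread over the widest range and the fat pad over the narrowest. Parenchyma ad libitum replicate 7, at 9524, stood clear of the other 5 libraries of its group, which did not exceed 6624.

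MiR-107 moved over a smaller range. In liver its lowest, median and highest values were 2579, 3855 and 5319 in the ad libitum group and 3132, 3927 and 4327 in the restricted group. The control livers had 1935, 2694, 2428, 3634 and 2696. In parenchyma the corresponding values were 2347, 2483 and 3456 in the ad libitum group and 2388, 2669 and 2945 in the restricted group, against 2587, 3660 and 3068 in the control group. Fat pad values were 2935, 3251 and 3747 in the ad libitum group, 3145, 3178 and 3460 in the restricted group, and 3038, 3010, 3124 and 2949 in the control group. All 3 tissues overlapped in their miR-107 values.

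**Figure D1:**
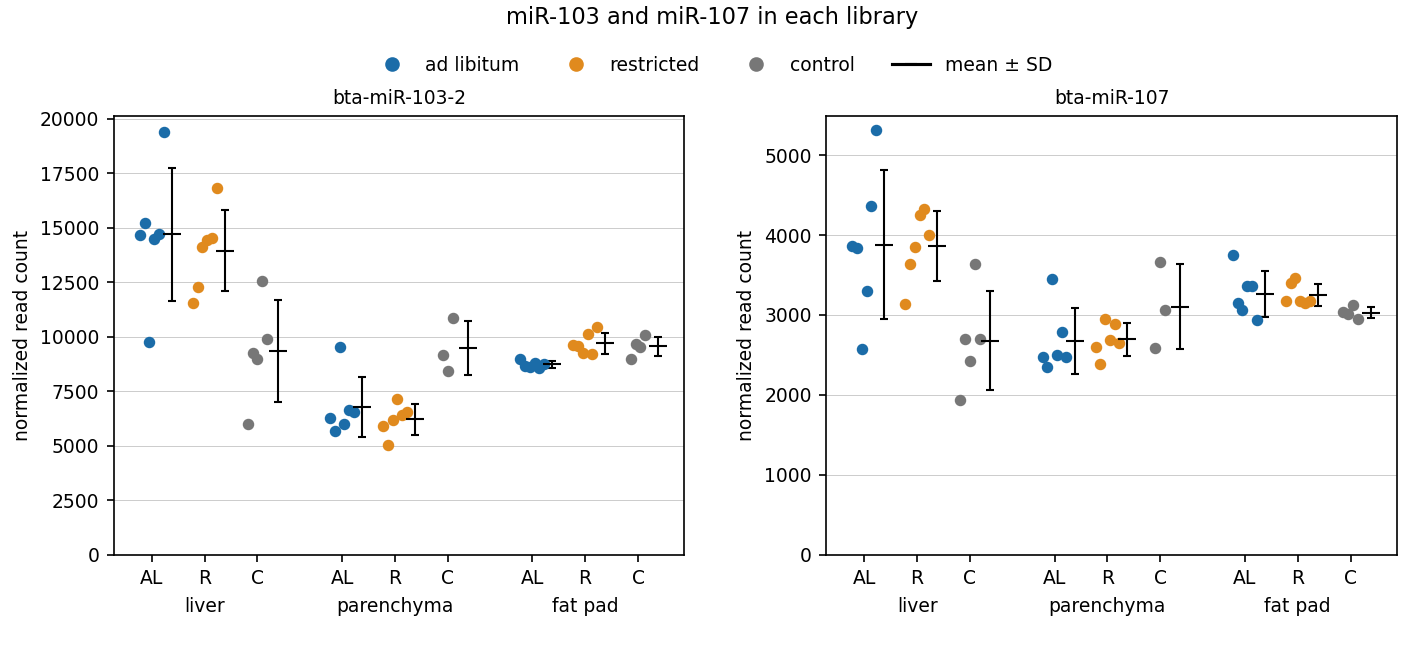
Normalized read counts (vertical axes, linear from 0) of bta-miR-103-2 and bta-miR-107 in each of the 48 libraries, by tissue and feeding group (AL, ad libitum; R, restricted; C, control). Points are libraries and the black marks give the mean ± SD of a group. MiR-103-2 reached 19408 in liver of animals fed milk replacer, and in parenchyma of such animals it lay between 5035 and 9524.

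Among animals fed milk replacer, the order of the tissues was liver, fat pad, parenchyma for both miRNAs. MiR-103-2 averaged 14335 ± 2447 in liver and 6492 ± 1095 in parenchyma (SD, n = 12 each), which gave a log2 fold change of 1.14 ± 0.09 (SE; limma adjusted p = 1.28e-13). The lowest liver value, 9780, exceeded the highest parenchyma value, 9524. MiR-107 averaged 3873 ± 694 in liver and 2683 ± 309 in parenchyma, a log2 fold change of 0.52 ± 0.09 (adjusted p = 3.62e-06), with 9 of 12 livers above every parenchyma library. All 3 entries passed the threshold in this comparison, in which 77.7% of the 345 miRNAs tested passed it and 30.7% passed as higher in liver. Such a lack of overlap was found for 40% of all miRNAs tested, and with liver higher for 12.8%. Liver was also above fat pad. Against 9218 ± 611 normalized read counts in the fat pad, liver miR-103-2 gave a log2 fold change of 0.62 ± 0.09 (SE; limma adjusted p = 1.38e-07), and 11 of 12 livers were above every fat pad library. For miR-107 the fat pad mean was 3261 ± 215 and the log2 fold change 0.23 ± 0.09 (adjusted p = 0.0206). In this comparison 79.4% of all miRNAs tested passed. MiR-107 no longer passed when samples numbered 10, 13 or 15 were left out, with log2 fold changes of 0.21, 0.21 and 0.16 and limma adjusted p between 0.0505 and 0.0858.

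Parenchyma was below fat pad. MiR-103-2 averaged 6492 ± 1095 normalized read counts in parenchyma against 9218 ± 611 in the fat pad, and its log2 fold change was -0.52 ± 0.09 (SE; limma adjusted p = 4.39e-06), with 11 of 12 parenchyma libraries below every fat pad library. MiR-107 gave a log2 fold change of -0.29 ± 0.09 (adjusted p = 0.00476), with 10 of 12 parenchyma libraries below every fat pad library. Here 74.5% of all miRNAs tested passed and 28.4% passed as lower in parenchyma, so that the members went against the median of all miRNAs, which was 0.37. How far these tissue differences reach depends on the scaling. The summed values of a library were not equal between tissues: they averaged 5617329 in liver, 3336743 in parenchyma and 4590041 in the fat pad of animals fed milk replacer. When each library was rescaled to a sum of 1000000, the median over all miRNAs moved to 0.74 between parenchyma and fat pad, to -0.93 between liver and parenchyma, where it was -0.46 in the table's own scaling, and to -0.49 between liver and fat pad, where it was -0.22. MiR-103-2 then stayed higher in liver, by 0.40 against parenchyma (limma adjusted p = 0.00158) and by 0.34 against fat pad (adjusted p = 0.00638), and its difference between parenchyma and fat pad was -0.058 (adjusted p = 0.649). MiR-107 no longer passed in any of the 3 comparisons and changed sign, to -0.23 between liver and parenchyma, -0.053 between liver and fat pad and 0.17 between parenchyma and fat pad. Rescaling multiplies all values of a library by the same factor, so it shifts all miRNAs nearly alike. Differences relative to the median of all miRNAs can therefore hardly change, and their kept signs are no test of the scaling. Relative to that median, miR-103-2 was 1.60 higher in liver than in parenchyma under the table's scaling and 1.33 higher after rescaling. MiR-107 was 0.97 and 0.70 higher. Between parenchyma and fat pad the relative differences under these scalings were -0.89 and -0.80 for miR-103-2 and -0.65 and -0.57 for miR-107.

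Control libraries did not show the order of the tissues. In a fit of the control samples alone, miR-103-2 differed by -0.055 between liver and parenchyma (limma adjusted p = 0.873), by -0.073 between liver and fat pad (adjusted p = 0.791) and by -0.018 between parenchyma and fat pad (adjusted p = 0.993). For miR-107 these log2 differences were -0.23, -0.21 and 0.021. This rests on 5 livers, 3 parenchyma libraries that are low in epithelial markers, and 4 fat pads. Depth also differed between the tissues, as given above, and with log2 reads as a covariate the difference of miR-107 between liver and fat pad was 0.10 (adjusted p = 0.459).

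The ratio of miR-107 to miR-103-2 also differed between tissues. A ratio of 2 values of the same library does not depend on its scaling. It does depend on how any reads that fit both of these nearly identical miRNAs were assigned. That is not given in the sources used here. In liver of animals fed milk replacer, miR-107 stood at 27.1% ± 2.33 of miR-103-2, with values between 22.8% and 29.7%. In parenchyma it stood at 41.7% ± 3.74, between 36.3% and 47.6%, and in the fat pad at 35.5% ± 3.26, between 30.4% and 41.7% (SD, n = 12 each). All 12 livers were therefore below every parenchyma library and below every fat pad library, while parenchyma and fat pad overlapped. How often ratios of other pairs of miRNAs separate in this way was not tested, so the separation is not shown to be particular to this family. The mean log2 ratio differed by -0.62 between liver and parenchyma and by -0.39 between liver and fat pad. Both differences gave p = 1e-05 in a two-sided permutation test with 100000 resamples, the smallest p it can give, or 4.5e-05 adjusted over the 9 comparisons of this ratio. Parenchyma exceeded fat pad by 0.23 on the log2 scale (permutation test, p = 0.00029, adjusted p = 0.00087). This value pools unequal gaps of the feeding groups. Ad libitum libraries averaged 39.7% ± 2.38 for parenchyma against 37.4% ± 2.87 for fat pad. Restricted libraries averaged 43.7% ± 3.97 against 33.6% ± 2.60 (SD, n = 6 each), a wider gap. The tissue difference was not tested within each feeding group. In the control group the percentages were 28.9 ± 2.14 in liver (n = 5), 33.3 ± 8.69 in parenchyma (n = 3) and 31.8 ± 2.00 in the fat pad (n = 4). The parenchyma libraries of the control group were far apart, at 28.3% in replicates 1 and 18 and 43.3% in replicate 2.

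The copies of miR-103 were not in a fixed ratio either. MiR-103-1 stood at 90.8% ± 0.560 of miR-103-2 in liver and 91.6% ± 0.648 in the fat pad of animals fed milk replacer (SD, n = 12 each). In parenchyma it stood at 93.9% ± 0.415 in the ad libitum group and 94.1% ± 0.578 in the restricted group (SD, n = 6 each). Parenchyma, from 93.4% to 94.8%, overlapped neither liver, from 89.5% to 91.5%, nor fat pad, from 90.6% to 92.4%. In control parenchyma the percentages were 90.1, 94.2 and 91.3 in replicates 1, 2 and 18. How the reads were divided between the copies is not given in the sources used here, so this ratio is a property of the entries and no test was run on it.

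**Figure D2:**
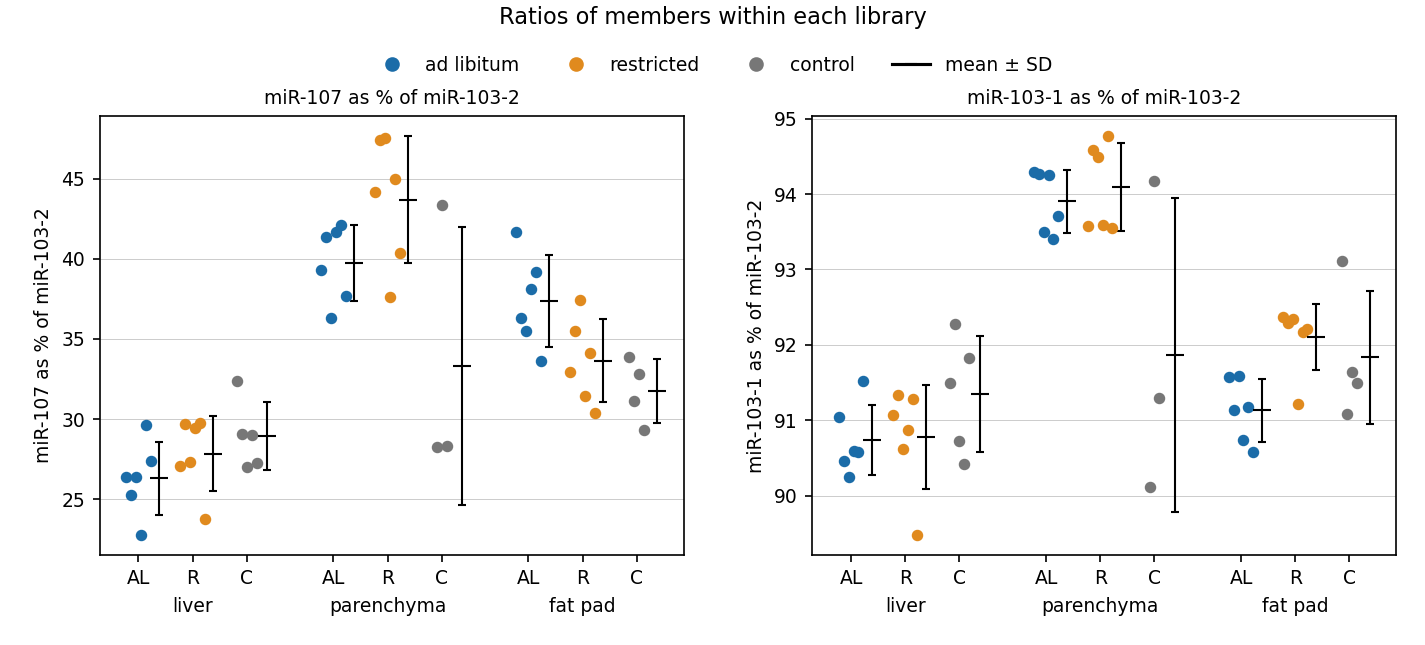
MiR-107 (left) and miR-103-1 (right) as a percentage of miR-103-2 in each library (vertical axes, neither starting at 0), by tissue and feeding group (AL, ad libitum; R, restricted; C, control). Points are libraries and black marks the mean ± SD of a group. Every liver library of animals fed milk replacer was at or below 29.7% on the left, and every such parenchyma library was at or above 36.3%.

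Ad libitum and restricted feeding were next compared within each tissue. In liver, miR-103-2 averaged 14712 ± 3055 in the ad libitum group and 13957 ± 1868 in the restricted group, and miR-107 averaged 3878 ± 930 and 3867 ± 439 in the same order (SD, n = 6 each). The log2 fold changes were 0.06 ± 0.19 and -0.02 ± 0.19 (SE), far from the threshold (limma adjusted p = 0.986 and 1.0), and 0.324% of the 309 miRNAs tested passed. In parenchyma the log2 fold changes were 0.11 ± 0.19 for miR-103-2 and -0.02 ± 0.19 for miR-107 (adjusted p = 0.98 for both). None of the 339 miRNAs tested there passed in limma, and at an unadjusted p under 0.05 the count was also 0.

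The fat pad was the tissue where the feeding groups separated. MiR-103-2 averaged 8732 ± 154 in the ad libitum group and 9703 ± 481 in the restricted group (SD, n = 6 each), and the highest ad libitum value, 8994, was below the lowest restricted value, 9216. MiR-103-1 was split in the same way, at 7817 to 8237 in the ad libitum group against 8495 to 9614 in the restricted group. Such a split, in either direction, was found for 8.64% of the 301 miRNAs tested, and with the ad libitum group lower for 5.65%. The log2 fold change of miR-103-2 was -0.15 ± 0.07 (SE; limma adjusted p = 0.144), so it did not pass, in a comparison where 16.6% of all miRNAs did. Cell markers moved with the split. Immune cell markers summed to 2878 to 3250 in the ad libitum group and to 3207 to 4309 in the restricted group, in which 5 of 6 libraries exceeded every ad libitum library. Adipocyte-linked markers summed to 59711 to 86318 (median 75951) in the ad libitum group and to 30672 to 68269.9 (median 43019) in the restricted group. By the mean of log2(value + 1) over a list, immune cell markers were at 7.98 to 8.45 and 8.23 to 8.92 in this order. Adipocyte-linked markers were at 10.73 to 11.31 and 10.12 to 10.93. Stromal and smooth muscle markers did not overlap by this mean, at 15.36 to 15.54 and 15.56 to 15.79. Their sums did overlap, at 470972 to 657113 and 468974 to 771236. The part of these lists in the result was not tested. MiR-107 had 3267 ± 288 in the ad libitum group and 3255 ± 137 in the restricted group, with a log2 fold change of 0.00 ± 0.08 (adjusted p = 0.986). The summed values of the libraries moved together with miR-103 here, at 4355210.02 ± 237112 in the ad libitum group and 4824872 ± 369366 in the restricted group. After rescaling to equal sums the log2 fold change of miR-103-2 was -0.005 (adjusted p = 0.963). The ratio of miR-107 to miR-103-2 was 37.4% ± 2.87 in the ad libitum group and 33.6% ± 2.60 in the restricted group, a log2 difference of 0.15 (exact two-sided permutation test, p = 0.039, adjusted p = 0.0701). It went the other way in parenchyma, where it was 39.7% ± 2.38 in the ad libitum group and 43.7% ± 3.97 in the restricted group (log2 difference -0.13, exact permutation p = 0.0736, adjusted p = 0.0946). In liver the percentages were 26.3 ± 2.27 and 27.8 ± 2.33 in this order (exact permutation p = 0.275, adjusted p = 0.275). Whether these differences of the ratio differ between tissues was not tested. For the levels it was: no difference between tissues in the effect of ad libitum against restricted feeding passed for any of the 3 entries, with log2 differences between -0.05 and 0.27 and limma adjusted p of 0.672 or more. Over all 345 miRNAs, 0% passed in the comparison of parenchyma with fat pad and of liver with parenchyma (17 and 9 had an unadjusted p under 0.05), and 0.87% in that of liver with fat pad.

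Animals fed milk replacer, ad libitum or restricted, were then set against the control group. In liver the miRNAs were higher with milk replacer. MiR-103-2 averaged 14335 ± 2447 in livers of animals fed milk replacer (SD, n = 12) and 9331 ± 2345 in control livers (n = 5), a log2 fold change of 0.64 ± 0.18 (SE; limma adjusted p = 0.0407), with 9 of 12 above the highest control. MiR-103-1 changed by 0.63 (adjusted p = 0.0407). MiR-107 had 3873 ± 694 with milk replacer and 2677 ± 618 in controls, and its log2 fold change of 0.54 ± 0.18 did not pass (adjusted p = 0.0792). Marker miRNAs of immune cells moved with this comparison, with sums of 11367 to 39063 (median 20785) in livers of animals fed milk replacer, 10 of 12 of them above the highest control, against 11786 to 15795 (median 12770) in control livers. Adipocyte-linked markers summed to 6337 to 15748 with milk replacer and to 11803 to 21355 in controls. By the mean of log2(value + 1) over a list, immune cell markers were at 10.21 to 11.42 with milk replacer and 10.16 to 10.45 in controls. Fewer livers stood above the highest control by this mean than by the sum. Adipocyte-linked markers were at 7.82 to 10.13 and 8.15 to 9.71 in the same order. The part of either list in the result was not tested. In this comparison 6.8% of the 309 miRNAs tested passed and 1.62% passed as higher with milk replacer. The call for miR-103-2 was close to the threshold: it was lost when number 1, 2, 3, 6, 10, 11, 16, 18 or 21 was left out (adjusted p between 0.0526 and 0.129, log2 fold changes between 0.49 and 0.67), with log2 reads as a covariate (0.60, adjusted p = 0.0683) and after rescaling (0.41, adjusted p = 0.274). MiR-107 passed when number 7 or 19 was left out, with log2 fold changes of 0.60 and 0.66. The ratio of the miRNAs was 27.1% ± 2.33 with milk replacer and 28.9% ± 2.14 in controls (exact permutation p = 0.152, adjusted p = 0.171).

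In parenchyma the direction was the opposite. MiR-103-2 averaged 6492 ± 1095 with milk replacer (SD, n = 12) and 9482 ± 1231 in control parenchyma (n = 3), a log2 fold change of -0.55 ± 0.21 (SE; limma adjusted p = 0.0382), with 11 of 12 below the lowest control. MiR-103-1 fell by 0.52 on the log2 scale (adjusted p = 0.0483), and miR-107 differed by -0.20 ± 0.21 (adjusted p = 0.443). Here 45.4% of the 339 miRNAs tested passed and 15.3% passed as lower with milk replacer. The epithelial markers moved with this comparison, since they summed to at most 421 in the control parenchyma libraries and to at least 61371 in the others, and the adipocyte-linked markers did so in part (943 to 16510 with milk replacer, against 8673 to 85594 in controls). The sums of another 3 lists were lower in all libraries with milk replacer than in any control. Endothelial markers summed to 52569 to 106702 against 172748 to 426786. Stromal and smooth muscle markers summed to 356398 to 484879 against 597848 to 930599, and hepatocyte markers to 2937 to 4568 against 8987 to 11903. By the mean of log2(value + 1) over a list, only the endothelial markers stayed apart, at 12.54 to 13.91 against 14.36 to 15.57. By this mean the stromal and smooth muscle markers overlapped (15.14 to 15.55 against 14.83 to 16.03), and so did the hepatocyte markers (7.04 to 8.59 against 7.60 to 9.45). Immune cell markers summed to 2472 to 6241 with milk replacer, and to 96491 in control replicate 18. Tissue content and feeding cannot be told apart here. The call for miR-103-2 was lost when number 1, 3, 4, 5, 6, 8, 9, 11, 15 or 18 was left out (adjusted p between 0.0511 and 0.106, log2 fold changes between -0.58 and -0.45), and after rescaling (-0.22, adjusted p = 0.466). The ratio of miR-107 to miR-103-2 was 41.7% ± 3.74 with milk replacer and 33.3% ± 8.69 in controls, a log2 difference of 0.35 (exact permutation p = 0.0198, adjusted p = 0.0445). Without number 1 or 18, the control libraries at 28.3%, it was 0.25 and did not pass (adjusted p = 0.141 and 0.13), and without number 4, 5 or 13 the adjusted p was 0.0556.

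In the fat pad neither miRNA passed. MiR-103-2 averaged 9218 ± 611 with milk replacer (SD, n = 12) and 9556 ± 452 in controls (n = 4), a log2 fold change of -0.05 ± 0.07 (SE; limma adjusted p = 0.593). MiR-107 averaged 3261 ± 215 and 3030 ± 72.7 in this order, a log2 fold change of 0.10 ± 0.08 (adjusted p = 0.387), with 10 of 12 above the highest control. Of the 301 miRNAs tested, 11% passed. The ratio was 35.5% ± 3.26 with milk replacer and 31.8% ± 2.00 in controls (log2 difference 0.16, exact permutation p = 0.0473, adjusted p = 0.0709).

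The effect of milk replacer differed between liver and the other tissues. Liver minus parenchyma, the difference of the log2 fold changes was 1.19 ± 0.20 for miR-103-2 (SE; limma adjusted p = 4.41e-06), 1.15 ± 0.20 for miR-103-1 (adjusted p = 6.85e-06) and 0.75 ± 0.20 for miR-107 (adjusted p = 0.00195), in a comparison where 40.3% of the 345 miRNAs passed. Liver minus fat pad, it was 0.69 ± 0.19 for both entries of miR-103 (adjusted p = 0.0145) and 0.44 ± 0.19 for miR-107 (adjusted p = 0.131), where 11.3% passed. Parenchyma minus fat pad, it was -0.50 ± 0.21 for miR-103-2 (adjusted p = 0.0692) and -0.31 ± 0.21 for miR-107 (adjusted p = 0.292), where 25.8% passed. Without number 7 the last difference passed for miR-103-2 (-0.55, limma adjusted p = 0.0212). The difference of liver minus parenchyma rests on the 3 control parenchyma libraries. After rescaling it remained past the threshold for miR-103-2 (0.63, adjusted p = 0.0262) and not for miR-107 (0.18, adjusted p = 0.575), and that between liver and fat pad was 0.28 for miR-103-2 (adjusted p = 0.53). With log2 reads as a covariate the difference between liver and fat pad was 0.59 for miR-103-2 (limma adjusted p = 0.0833) and that between parenchyma and fat pad was -0.57 (adjusted p = 0.0394). The difference between liver and fat pad was also lost without number 1 (0.54, adjusted p = 0.054), the number of the control liver with the lowest value of both miRNAs, while miR-107 passed without number 7 (0.48, adjusted p = 0.0483).

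**Figure D3:**
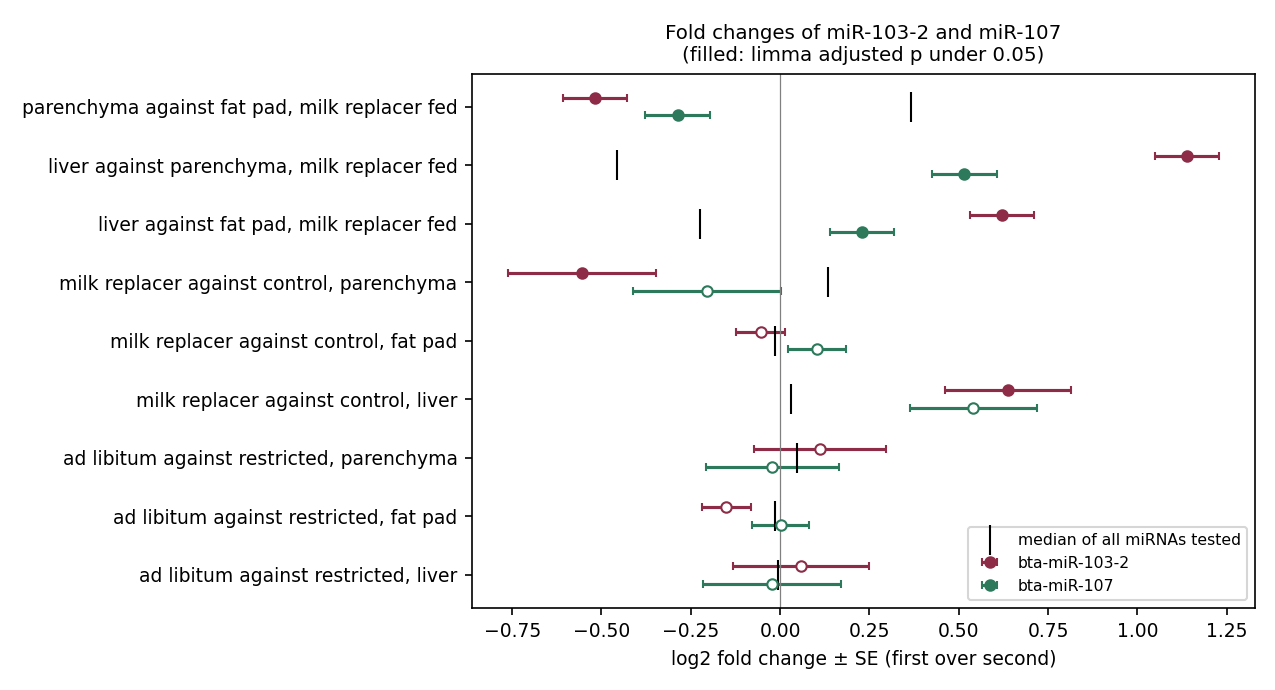
Log2 fold change ± SE (horizontal axis) of bta-miR-103-2 and bta-miR-107 in the 9 comparisons, the first group of each name over the second, from limma. Filled points passed an adjusted p of 0.05 and the black strokes mark the median of all miRNAs tested. The tissue comparisons run from -0.52 to 1.14 for miR-103-2, and those between ad libitum and restricted feeding from -0.15 to 0.11.

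Against other miRNAs, the members varied little over the whole series. The SD of the log2 level of miR-107 over the 48 libraries was 0.28, the smallest of all 345 miRNAs with a mean of at least 10, whose median SD was 1.15. The SD of miR-103-2 was 0.46 (rank 19) and that of miR-103-1 was 0.44 (rank 16). Of the 148 miRNAs with a mean of at least 1000, which had a median SD of 0.88, miR-107 ranked 1, miR-103-1 ranked 13 and miR-103-2 ranked 16. After rescaling to equal sums, the entries of the family took the first 3 places of 345: 0.29 for miR-103-1, 0.29 for miR-107 and 0.30 for miR-103-2. Within the tissues of animals fed milk replacer the SD of miR-107 was 0.27 in liver (rank 11 of 308), 0.16 in parenchyma (rank 3 of 333) and 0.09 in the fat pad (rank 2 of 305). For miR-103-2 it was 0.25 in liver (rank 8), 0.22 in parenchyma (rank 19) and 0.09 in the fat pad (rank 3). After rescaling, these ranks within tissues were less extreme for most: for miR-107 the SD was 0.37 in liver (rank 36), 0.19 in parenchyma (rank 8) and 0.17 in the fat pad (rank 21), and for miR-103-2 it was 0.36 (rank 29), 0.25 (rank 37) and 0.08 (rank 2) in the same tissues. All ranks are descriptions, without a test.

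**Figure D4:**
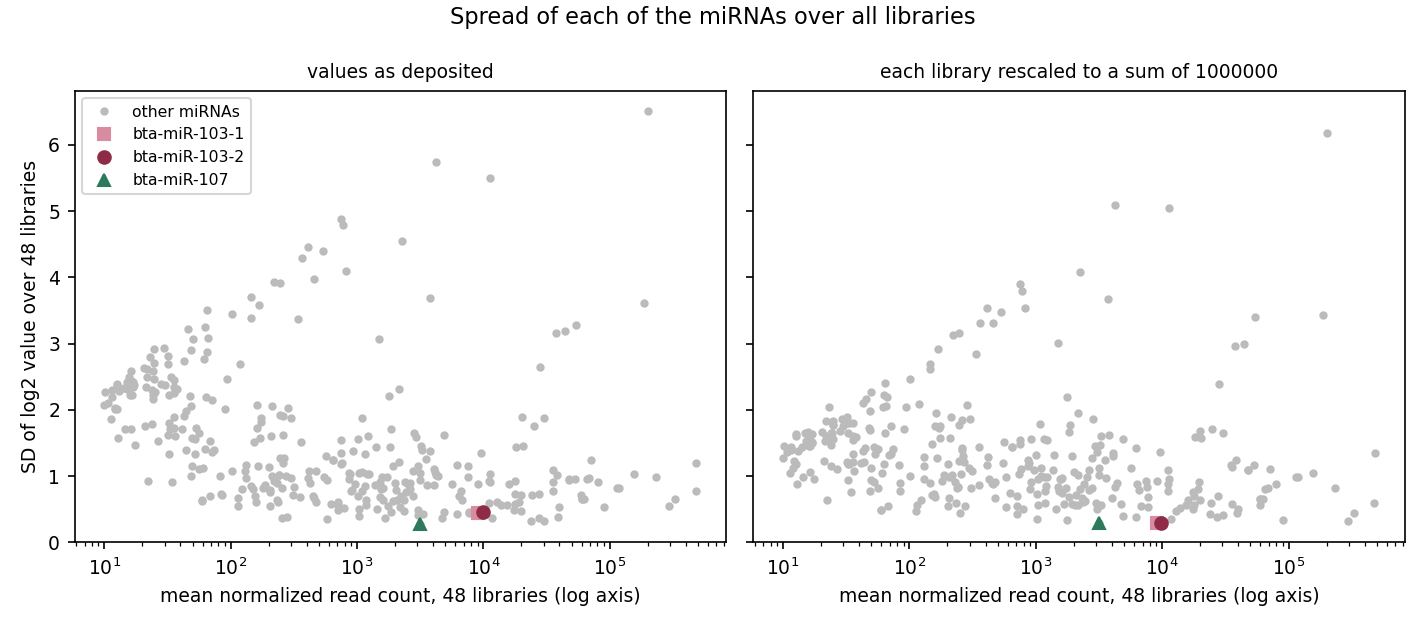
SD of log2(value + 1) over the 48 libraries (vertical axis) against the mean normalized read count (horizontal log axis) for 345 miRNAs, with the values as deposited on the left and each library rescaled to a sum of 1000000 on the right. The SDs of the members, 0.28 to 0.46 on the left and 0.29 to 0.30 on the right, lie at the lower edge of the cloud, whose median SD is 1.15 on both sides.

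The miRNAs most alike to the members were named by Pearson's r of log2(value + 1) over the 36 libraries of animals fed milk replacer. For miR-103-2 they were miR-185 (r = 0.95), miR-215, which belongs to the family of the liver miRNA miR-192 (0.89), miR-107 (0.89), miR-152 (0.88) and miR-28 (0.88). For miR-107 they were miR-103-1 (0.90), miR-103-2 (0.89), miR-185 (0.80), miR-152 (0.78) and miR-22-3p (0.74). These points share the tissue differences and the scaling of their libraries. Within a tissue, over 12 libraries, miR-103-2 and miR-107 had an r of 0.88 in liver, 0.82 in parenchyma and 0.00 in the fat pad. Both had a log2 SD of 0.09 in the fat pad, and its part in this r was not tested. For miR-103-2 and miR-185 the r was 0.59 in liver, 0.91 in parenchyma and -0.19 in the fat pad. For miR-107 and miR-185 these 3 values were 0.39, 0.72 and -0.61. MiR-215 and miR-103-2 had an r of -0.11, 0.62 and -0.15 in the same order of tissues, and miR-28 and miR-103-2 had 0.09, 0.67 and 0.93. Likeness across tissues thus did not carry over to every tissue for these pairs.

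Relatives of the family were looked at as a list. The miR-15, miR-16, miR-195, miR-497, miR-424 and miR-503 miRNAs carry a seed that overlaps that of miR-103 and miR-107, and several of them are known to slow the cell cycle. Of 9 names, 8 matched, with 9 entries, miR-646 was not analysed here, and miR-503-3p is the other arm of its hairpin and has another seed. In the comparison of liver with parenchyma, where 77.7% of all miRNAs passed, 3 of these 9 rose and 5 fell, with a median log2 fold change of -0.54 beside -0.46 for all miRNAs. Liver against fat pad gave 2 higher and 5 lower (median -0.87, all miRNAs -0.22), where 79.4% passed, and parenchyma against fat pad 2 higher and 5 lower (median -0.64, all miRNAs 0.37), where 74.5% passed. The shares of relatives called were near these backgrounds, and miR-503-3p was among the lower ones in each of these comparisons. MiR-16a had the order of miR-103 between liver and parenchyma, with 2837 ± 1134 normalized read counts in liver and 1222 ± 459 in parenchyma (log2 fold change 1.17, limma adjusted p = 2.17e-06). MiR-497 had the reverse, with 794 ± 183 in liver and 1623 ± 205 in parenchyma (-1.06, adjusted p = 3.29e-09). MiR-195 was above all in the fat pad, with 1718 ± 558 in liver, 1545 ± 446 in parenchyma and 4709 ± 990 in the fat pad. None of the relatives passed between ad libitum and restricted feeding in any tissue. Of all miRNAs tested, 0% passed in parenchyma, 16.6% in the fat pad and 0.324% in liver. Nothing particular to the relatives is read from this. With milk replacer against control, miR-497 and miR-503-5p, 2 of 9, rose in both mammary tissues, where 45.4% of all miRNAs passed in parenchyma and 11% in the fat pad. MiR-497 had 1623 ± 205 with milk replacer and 1041 ± 597 in control parenchyma (0.77, adjusted p = 0.0289), and 1445 ± 295 and 942 ± 149 in the fat pad in this order (0.60, adjusted p = 0.0274). None of the 8 tested passed in liver, where 6.8% of all miRNAs did.

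A second list held miRNAs that have been linked to insulin or glucose handling, among them the let-7 family, which represses the insulin receptor pathway, miR-143, miR-26a, the miR-29 family and the pancreatic islet miRNA miR-375. Of 24 names, 22 matched, with 23 entries, and miR-33b and miR-802 were not analysed here. The entry let-7a-1-3p is the other arm of its hairpin and has another seed than let-7. MiR-122, miR-143, miR-223, miR-375 and miR-378 are also among the cell markers. Of 22 tested, 11 rose and 4 fell in liver against parenchyma (median log2 fold change 0.77, all miRNAs -0.46), 7 rose and 10 fell in liver against fat pad (median -0.21, all miRNAs -0.22), and 4 rose and 15 fell in parenchyma against fat pad (median -1.08, all miRNAs 0.37). The calls, 15, 17 and 19 of 22, stand beside 77.7%, 79.4% and 74.5% of all miRNAs in these comparisons, and nothing particular to the list is read from them. MiR-26a had 352197 ± 61783 normalized read counts in liver, 158724 ± 30786 in parenchyma and 325974 ± 65796 in the fat pad. Like miR-103-2 it was lowest in parenchyma, and its difference between liver and fat pad was 0.12 (limma adjusted p = 0.257). MiR-143, which is highest in smooth muscle, had 417737 ± 123546, 157963 ± 25386 and 316454 ± 75691 in the same order of tissues. Between ad libitum and restricted feeding, 2 rose, 1 of them let-7a-1-3p, and 3 fell of 21 tested in the fat pad, where 16.6% of all miRNAs passed. None of 22 passed in liver or in parenchyma, where 0.324% and 0% of all miRNAs did. MiR-26a fell in the fat pad, to 271574 ± 24278 in the ad libitum fat pads, against 380374 ± 42802 in the restricted ones (-0.48, adjusted p = 0.00239). In the same comparison let-7i had 137189 ± 39130 and 138304 ± 14100 in this order (-0.05, adjusted p = 0.82). With milk replacer against control, 3 rose, 1 of them let-7a-1-3p, and 5 fell of 22 in parenchyma, 4 fell of 21 in the fat pad, and 1 fell of 22 in liver, beside 45.4%, 11% and 6.8% of all miRNAs in these tissues. MiR-26a fell in parenchyma (-0.88, adjusted p = 9.56e-04) and likewise in the fat pad (-0.39, adjusted p = 0.0133), and differed by 0.17 in liver (adjusted p = 0.569).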

How the data were processed

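Total RNA of each tissue piece was made into small RNA libraries by the authors with a kit that ligates adaptors, transcribes and amplifies. Bcl2fastq, FastQC, Trim Galore and DESeq2 stand in the submitters' processing notes, with no version or role. For the deposited table, the program that assigned reads, the genome build and the miRNA database were not given in the sources used here. Programs, a cattle build and a database are named in the paper for its own comparison of miRNA callers on selected samples, with no word that this table was made with them. Deposited values are normalized read counts. In each library they were whole multiples of 1 step (tolerance 0.01), the lowest above 0 being 6 steps, so a listed 0 can hide 5 reads, and the summed steps estimated its reads. Columns of the authors' own comparison (a mean, fold changes and p-values) in the deposited table were not used. Among 109 pairs of libraries of the same group none agreed within counting error (chi-square per degree of freedom of 65.3 or more).

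Groups were taken from the labels. Since the labels do not say which libraries share an animal, p-values measure the spread between these libraries. Fits used limma 3.58.1 (R 4.3.3) with log2(value + 1) as the response, a variance trend, and miRNAs averaging at least 10 in the fitted samples. The adjusted p threshold was 0.05, by Benjamini-Hochberg across all miRNAs of a fit. Tissues were compared in 36 libraries, feeding groups within each tissue, and differences between tissues as interaction contrasts. The log2 ratio of miR-107 to miR-103-2 was tested with permutation tests in Python 3.11.15, two-sided, exact where a group had fewer than 10 libraries and with 100000 resamples otherwise. Both tests were tried on simulated data. Alternatives were another pseudocount, other filters, rescaling, log2 reads as a covariate, all 48 or only control libraries, a replicate block, and leaving out each number. The rank of the SD after rescaling was added after the data were seen. Members, lists and comparisons were chosen with earlier results of these data known. Entries that are copies of 1 mature miRNA arm were counted once in a list, by the copy with the highest mean. From each list at most 4 entries per comparison, those with the highest mean, were open to be named beside the counts, and per member the 5 most similar miRNAs.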

Additional observations from a re-analysis of the deposited data

Results flagged for a closer look

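In parenchyma of the ad libitum group, replicate 7 lay far from the other libraries of its group, at 9524 normalized read counts of miR-103-2 and 8904 of miR-103-1. The gap to the nearest library was 0.754 and 0.765 of the whole range. These were 2 of 32 tests for distant samples, the entries share reads, and chance alone gives about 1 in 20.

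The effect of milk replacer against control differed between tissues in 5 of 18 tests of such differences. Liver minus parenchyma, the difference in log2 fold change was 1.15 for miR-103-1, 1.19 for miR-103-2 and 0.75 for miR-107 (limma adjusted p = 6.85e-06, 4.41e-06 and 0.00195). Liver minus fat pad, it was 0.69 for miR-103-1 and 0.69 for miR-103-2 (adjusted p = 0.0145 for both). For miR-103-2 the last difference did not pass after rescaling (0.28, adjusted p = 0.53), with log2 reads as a covariate (0.59, adjusted p = 0.0833) or without number 1 (0.54, adjusted p = 0.054), and for miR-107 liver minus parenchyma did not pass after rescaling (0.18, adjusted p = 0.575). The control parenchyma libraries, which are low in the epithelial markers, enter the first 3, and the part of tissue content in them was not tested.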

How the results depend on the processing

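The comparisons of tissues and of feeding groups were repeated under each alternative. Apart from leaving out single numbers, 252 of 294 values of main interest kept their direction and their side of the threshold. Another pseudocount and other filters changed no call of a member.

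After rescaling each library to a sum of 1000000, miR-103-2 gave -0.058 between parenchyma and fat pad, -0.22 in parenchyma and 0.41 in liver between milk replacer and control, and 0.28 for the effect of milk replacer in liver minus fat pad, and no longer passed. MiR-107 gave 0.17 between parenchyma and fat pad, -0.23 between liver and parenchyma, -0.053 between liver and fat pad, 0.13 between milk replacer and control in parenchyma, 0.056 in parenchyma and 0.14 in liver between ad libitum and restricted, and 0.18 for the effect of milk replacer in liver minus parenchyma. In the fat pad, milk replacer against control gave 0.12 for both entries of miR-103. The effect of ad libitum feeding in liver minus parenchyma gave 0.039 for miR-103-1, 0.036 for miR-103-2 and 0.088 for miR-107. The shift of all miRNAs is given with the tissue comparisons.

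In the control samples alone, miR-103-2 gave -0.018 between parenchyma and fat pad, -0.055 between liver and parenchyma and -0.073 between liver and fat pad, miR-103-1 gave -0.063 between liver and parenchyma and -0.080 between liver and fat pad, and miR-107 gave 0.021, -0.23 and -0.21 in these 3 comparisons, with 51, 116 and 156 miRNAs called in place of 257, 268 and 274. With all 48 samples miR-107 gave -0.18 between parenchyma and fat pad and 0.083 between liver and fat pad, and did not pass. With log2 reads as a covariate it gave 0.10 between liver and fat pad, -0.016 between ad libitum and restricted in the fat pad, and 0.018 and 0.0021 for the effect of ad libitum feeding in parenchyma minus fat pad and in liver minus fat pad. With this covariate miR-103-2 gave 0.60 between milk replacer and control in liver and 0.59 in liver minus fat pad, which did not pass, and -0.57 in parenchyma minus fat pad, which did.

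Counts of miRNAs called moved by more than 1.5 times in a few cases. Between milk replacer and control in liver 13 were called with log2 reads as a covariate, in place of 21. For liver minus fat pad 24 were called without a filter, 24 with a mean of at least 50 and 14 with the covariate, in place of 39. Between ad libitum and restricted in liver 0 were called without a filter, after rescaling and without control samples, in place of 1. For the effect of ad libitum feeding, 1 was called with a pseudocount of 10 in parenchyma minus fat pad and 1 with a mean of at least 50 in liver minus parenchyma, in place of 0.

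Leaving out each sample number in turn gave the following ranges where a call or a sign changed. Between liver and fat pad, miR-107 ranged over 0.16 to 0.28. Between milk replacer and control, miR-103-2 ranged over -0.63 to -0.45 in parenchyma and 0.49 to 0.76 in liver, and miR-107 over 0.43 to 0.66 in liver. For the effect of milk replacer, miR-103-2 ranged over -0.55 to -0.41 in parenchyma minus fat pad and 0.54 to 0.81 in liver minus fat pad, and miR-107 over 0.33 to 0.54 in the last. Between ad libitum and restricted no member passed in any of these fits. There miR-107 ranged over -0.099 to 0.013 in parenchyma, -0.039 to 0.031 in the fat pad and -0.12 to 0.088 in liver, and in liver miR-103-1 over -0.030 to 0.17 and miR-103-2 over -0.027 to 0.17. For the effect of ad libitum feeding, miR-107 ranged over -0.12 to 0.037 in parenchyma minus fat pad, -0.12 to 0.19 in liver minus parenchyma and -0.15 to 0.068 in liver minus fat pad, and both entries of miR-103 over -0.14 to 0.16 in liver minus parenchyma. The log2 ratio ranged over -0.18 to -0.11 in parenchyma and 0.12 to 0.18 in the fat pad between ad libitum and restricted, and over 0.25 to 0.56 in parenchyma and 0.12 to 0.19 in the fat pad between milk replacer and control. Without number 10 the ratio passed in parenchyma between ad libitum and restricted (-0.18, exact permutation, adjusted p = 0.039), as it did in the fat pad without number 8 or 15 (0.18, adjusted p = 0.039), and in the fat pad between milk replacer and control without number 10 or 16 (0.17 and 0.18, adjusted p = 0.0451 and 0.0396). Counts of miRNAs called ranged over 32 to 58 and 0 to 1 between ad libitum and restricted in the fat pad and liver, and over 20 to 44 and 9 to 24 between milk replacer and control in these tissues. For differences between tissues they ranged over 0 to 1 in liver minus parenchyma and 0 to 4 in liver minus fat pad for ad libitum feeding, and over 17 to 50 in liver minus fat pad for milk replacer.

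The sample numbers recur in the 3 tissues, but the labels do not say that they mark an animal. Deviations of same-numbered samples correlated above 0.1 in 8 of 14 pairs of parenchyma and fat pad, 5 of 15 of liver and parenchyma and 9 of 16 of liver and fat pad, and 3, 1 and 3 samples correlated best with their own number. With a replicate block, miR-103-2 gave -0.52, 1.14 and 0.62 in the tissue comparisons and 259, 270 and 275 miRNAs were called. The only count moved by over 1.5 times was that of ad libitum feeding in liver minus parenchyma, with 1 called in place of 0, and no call of a member changed.

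Counting error is small for the members, but depth differed between tissues, and log2 reads as a covariate changed the calls given above. Precision is limited by the number of control samples, of 3 to 5 per tissue, and by 3 control parenchyma samples low in epithelial markers.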
